A study of Sus scrofa with 8 samples.

Results

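Apolipoproteins are the protein components of the lipid particles of plasma, and 10 of their genes are described here: APOA1, APOA2, APOA4, APOA5, APOB, APOC2, APOC3, APOE, APOH and APOM. The genes were found by symbol in a table of FPKM (fragments mapped to a transcript, divided by its length and by the mapped fragments of the library) that lists 17778 known genes and 325 new transcripts of pig liver. All 10 were found, and all 10 passed the filter on low values, as did 13175 of the 18103 rows of the table. The samples were livers of 8 male pigs of the cross Landrace x Large White, labelled healthy at 4 months of age (the initial state) and steatosis at 6 months. Between both ages the animals ate a steatotic diet for 2 months, which was rich in saturated fat, fructose, cholesterol and cholate and poor in methionine and choline. Each library was a pool of RNA from 2 pigs, with 4 libraries per state, and the same animals gave both states after overnight fasting. The initial state was sampled by biopsy and the final state after euthanasia, so age, diet and the way of sampling cannot be told apart. No animals of the older age without the diet were compared, and the SD and p values given here measure the spread between pools and not between pigs.

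Liver secretes most plasma apolipoproteins. APOB is the large structural protein that stays with a very low density lipoprotein (VLDL) particle from its assembly to its uptake as low density lipoprotein, whereas the small apolipoproteins move between particles. APOA1 and APOA2 build high density lipoprotein (HDL), APOC2 activates lipoprotein lipase in capillaries, APOC3 restrains this lipase and the clearance of remnants, APOA5 favours lipolysis, and APOE is the ligand by which remnants are taken up. APOM, a lipocalin, carries sphingosine 1-phosphate on HDL, and APOH, beta-2-glycoprotein I, binds phospholipids and is an apolipoprotein by name rather than by family.

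The libraries had FPKM sums between 511863 and 545731, and the smallest increments of FPKM among genes of 400 to 600 bases put their depth between 92.9% and 100% of the deepest. The median log2 fold change of the 13175 tested genes was 0.25 in favour of steatosis, and 78.7% of them lay above 0. When the FPKM of a library were divided by the median of their ratios to the mean of all libraries (called the median ratio from here on), this median became -0.02. Pool 1 of the initial state stood apart, with a summed FPKM of 2900.2 for 8 skeletal muscle genes and of 1492 for 6 genes of stomach and pancreas, against at most 21.4 and 30.2 in any other library. The limma fits and the ratios of the summed FPKM and of the share of the apolipoproteins were therefore also computed without this pool. Their ranks, ratios to each other, parts of the sum, exact tests and correlations include it. Hepatocyte markers were abundant in all libraries, with a summed FPKM over 16 genes between 76222 and 106701 in the initial state and between 67386 and 77423 in steatosis. Of 5 marker genes of intestinal enterocytes, the other main source of APOB and APOA4, 4 were low in every library, with at most 0.55 FPKM for LCT, 0.29 for FABP2, 0.05 for SI and 0.02 for MEP1A. The fifth, VIL1, a protein of microvilli that other epithelia also express, went from 1.15 ± 0.21 to 8.39 ± 1.94 FPKM (log2 fold change 2.76, adjusted p = 2.13e-05 from limma).

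In the fit without pairing, 4 apolipoprotein transcripts fell in steatosis and none of the 10 rose, and when the libraries were paired by pool number in a block the same 4 fell and APOA2 rose. With the block after division by the median ratio APOA2 was not called. APOA4 fell most, to 0.303 of its initial FPKM, followed by APOA5 to 0.583, APOC3 to 0.722 and APOH to 0.756, and for each of these genes all steatosis pools lay below all initial pools. APOA1, APOA2, APOB, APOC2, APOE and APOM did not pass the test. The genes were called with limma on log2(FPKM + 0.1) and an adjusted p under 0.05 after Benjamini-Hochberg adjustment over all tested genes. By this limit 2.28% of tested genes were lower and 26.7% were higher, against 4 and 0 of the 10 apolipoproteins. A single one of the 10, APOA2, was higher at an unadjusted p under 0.05 without the block. With the limits of the study, a log2 fold change beyond 1 with an adjusted p under 0.01, only APOA4 was lower and none was higher, where 0.334% and 6.01% of all tested genes were. Groups without overlap were found for 2.53% of tested genes in the lower direction and 29.6% in the higher direction, again against 4 and 0 of the apolipoproteins. The median log2 fold change of the 10 was -0.03, and 9 of the 10 lay below the median of all tested genes, the exception being APOA2. After division by the median ratio the same 4 genes were lower, but so were 10.1% of all tested genes, with 11.4% higher. The median of the 10 was then -0.31 and that of all genes -0.02. Without pool 1 of the initial state the same 4 genes were lower and none was higher. Of the 536 genes with a mean FPKM at least that of APOM, the least abundant of the 10, 9.14% were lower and 32.8% higher by the adjusted p of 0.05. In whole liver, fewer hepatocytes and less transcript per hepatocyte cannot be told apart.

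**Figure D1:**
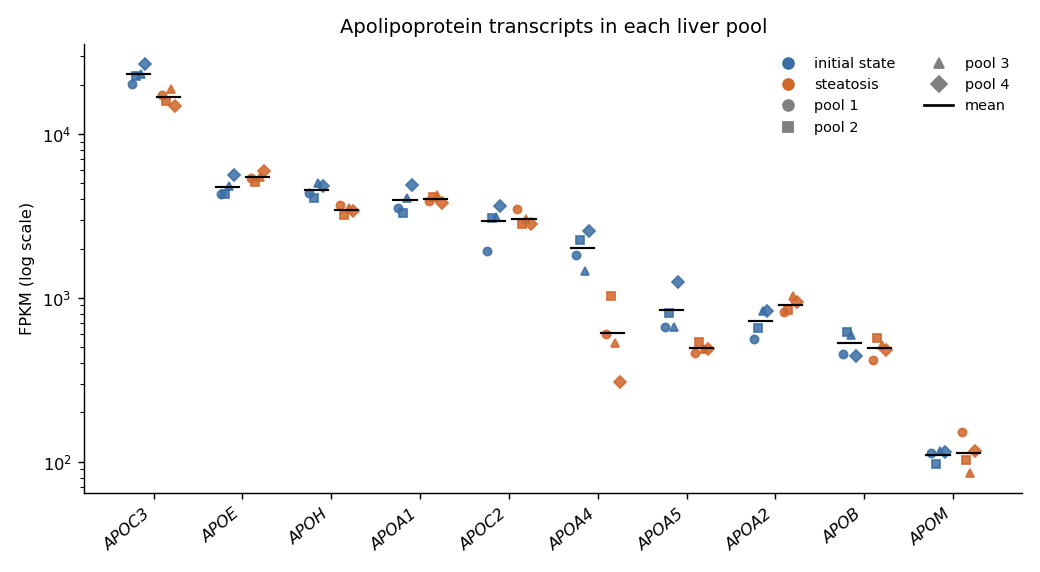
FPKM (log axis) of the 10 apolipoprotein genes in each of the 8 libraries, ordered by the mean in the initial state. Blue points are pools of the initial state and orange points pools of steatosis, the shape gives the pool number and the black line the mean of 4 pools. All steatosis points of APOA4, APOA5, APOC3 and APOH lie below the lowest initial point of the same gene, whereas the points of the other 6 genes overlap.

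The levels, compared per transcript length as FPKM, spanned a wide range in both states. APOC3 held rank 2 among all rows by mean FPKM in the initial state and in steatosis. In the initial state the order was APOC3, APOE, APOH, APOA1, APOC2, APOA4, APOA5, APOA2, APOB and APOM. APOC3 stood clear of APOE, APOA4 of APOA5 and APOB of APOM, while the ranges of all other neighbours in this order overlapped. Steatosis gave the order APOC3, APOE, APOA1, APOH, APOC2, APOA2, APOA4, APOB, APOA5 and APOM. There the ranges of APOA1 and APOH no longer overlapped, APOC2 stood clear of APOA2, and APOA2, APOA4, APOB and APOA5 formed a run of neighbours whose ranges overlapped. APOA4 moved from rank 40 to rank 127 among all rows, and APOA5 from rank 78 to rank 170. APOE moved from rank 9 to rank 6 and APOH from rank 10 to rank 15. Counted per fragment instead of per length, APOB, whose transcript is 12244 bases long, took 0.623% ± 0.107 (SD, n = 4) of all fragments in the initial state and was second to APOC3 with 1.25% ± 0.143. In steatosis APOB had 0.586% ± 0.0772 of the fragments and APOE 0.663% ± 0.044.

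Neither structural protein of HDL passed the test. APOA1, gene 397691, lies on chromosome 9 at 44216481 to 44218360 of Sscrofa11.1. In pools 1 to 4 its FPKM was 3528, 3282, 4075 and 4902.5 in the initial state and 3926, 4139, 4273 and 3807 in steatosis. The initial values enclosed all steatosis values. The means were 3947 ± 718 and 4036 ± 209 (SD, n = 4), the log2 fold change was 0.05 (SE 0.14, 95% interval -0.26 to 0.36) and the adjusted p from limma was 0.816. Scaling by the median ratio turned the estimate to -0.23.

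APOA2, gene 100153243 on chromosome 4 at 89237514 to 89239126, encodes the second protein of HDL. It had 559, 658, 828 and 834 FPKM in the initial state and 825, 840.4, 1034 and 947.6 in steatosis. It was higher in steatosis in 4 of 4 pools of the same number, but the lowest steatosis value lay below the 2 highest initial values. From 719.9 ± 135 to 912 ± 97.9, the log2 fold change was 0.35 (SE 0.15, 95% interval 0.03 to 0.68) with an adjusted p of 0.0948 from limma. With the pool number as a block in limma the adjusted p was 0.034, and APOA2 was then the one apolipoprotein called higher. Its share of the FPKM sum, 0.136% ± 0.0215 against 0.174% ± 0.0179, did not overlap between groups (two-sided exact permutation test, p = 0.0286, the smallest that 4 pools against 4 can give). On FPKM itself the same exact test gave p = 0.0857, and neither p was adjusted for the number of genes. Limma on FPKM divided by the library sum, without the block, gave an adjusted p of 0.0622. The estimate was 0.24 when pool 1 of the initial state was left out and 0.07 after division by the median ratio. After that division the adjusted p from limma was 0.806 without the block and 0.73 with it.

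APOM, gene 692188 on chromosome 7 at 23768974 to 23773324, was the least abundant of the 10. Its FPKM was 113, 97.5, 116 and 114 in the initial state. In steatosis it was 151, 102, 85.7 and 116, so the steatosis values spread to both sides of the initial values. The coefficient of variation between pools was 7.7% in the initial state and 24.5% in steatosis. The log2 fold change of 0.02 (SE 0.16, 95% interval -0.33 to 0.37) had an adjusted p of 0.935 from limma, and it was -0.26 after division by the median ratio.

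Among the regulators of triglyceride clearance, APOC3 and APOA5 fell and APOC2 did not pass the test. APOC3, gene 406187 on chromosome 9 at 44211171 to 44213538, had 20069, 22748, 23340 and 26616 FPKM in the initial state and 17386, 15835, 18834 and 14937 in steatosis. Every steatosis pool was lower than every initial pool. The means were 23193 ± 2689 and 16748 ± 1719.6 (SD, n = 4), and the log2 fold change was -0.47 (SE 0.15, 95% interval -0.79 to -0.14, adjusted p = 0.0378 from limma). The call was close to its limit and was lost in 6 of the 8 fits that left out 1 library, with adjusted p from limma of 0.0779, 0.0665 and 0.0891 without pool 2, 3 or 4 of the initial state and of 0.06, 0.0721 and 0.103 without pool 1, 2 or 4 of steatosis. It was also lost without the filter on low values (0.286), while the log2 fold change stayed between -0.54 and -0.40 over all fits that left out 1 library.

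APOA5, gene 100286807 on chromosome 9 at 44177834 to 44180880, had 667, 814, 663 and 1245 FPKM in the initial state. The 4 steatosis pools were close together at 462, 537, 488 and 487. All of them were below the lowest initial value, and pool 4 of the initial state was the highest of the 8. The mean fell by 41.7%, from 847 ± 274 to 494 ± 31.7 (SD, n = 4), with a log2 fold change of -0.73 (SE 0.19, 95% interval -1.15 to -0.32) and an adjusted p of 0.017 from limma. The adjusted p stayed below 0.05 under all 18 alternatives, with log2 fold changes between -1.01 and -0.53.

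APOC2, gene 100381252 on chromosome 6 at 51404219 to 51406302, had 1937, 3083, 3115 and 3639 FPKM in the initial state and 3489, 2835, 3027 and 2828 in steatosis. Pool 1 was the lowest of the initial state and the highest of steatosis, and the groups overlapped. The means were 2943 ± 718 and 3045 ± 310.1, with a log2 fold change of 0.08 (SE 0.19, 95% interval -0.33 to 0.50) and an adjusted p of 0.767 from limma. The estimate was -0.11 without pool 1 of the initial state and -0.20 after division by the median ratio. Since the activator and the inhibitor of lipoprotein lipase were measured in the same libraries, their ratio is free of scaling between libraries. APOC3 was 10.4, 7.38, 7.49 and 7.32 times APOC2 in pools 1 to 4 of the initial state and 4.98, 5.59, 6.22 and 5.28 times in steatosis, with no overlap between groups.

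APOA4, an exchangeable protein of chylomicrons and HDL, had the largest difference of the 10. Gene 397681 lies on chromosome 9 at 44201587 to 44204072. Its FPKM was 1821, 2272, 1464 and 2555 in pools 1 to 4 of the initial state and 599, 1021, 528 and 309 in steatosis. The highest steatosis value lay below the lowest initial value, and pool 4 had both the highest initial and the lowest steatosis value. The mean fell by 69.7%, from 2028 ± 482 to 614 ± 298 (SD, n = 4). The log2 fold change was -1.82 (SE 0.32, 95% interval -2.53 to -1.11, adjusted p = 0.00291 from limma), lower than in all but 0.288% of tested genes. Pool by pool the log2 ratio lay between -3.05 and -1.15. The adjusted p from limma stayed between 0.00125 and 0.0106 in the fits that left out 1 library and passed 0.01 without pool 2 (0.0106) or pool 4 (0.01) of the initial state. When pool 1 of the initial state was left out, the estimate was -1.86.

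**Figure D2:**
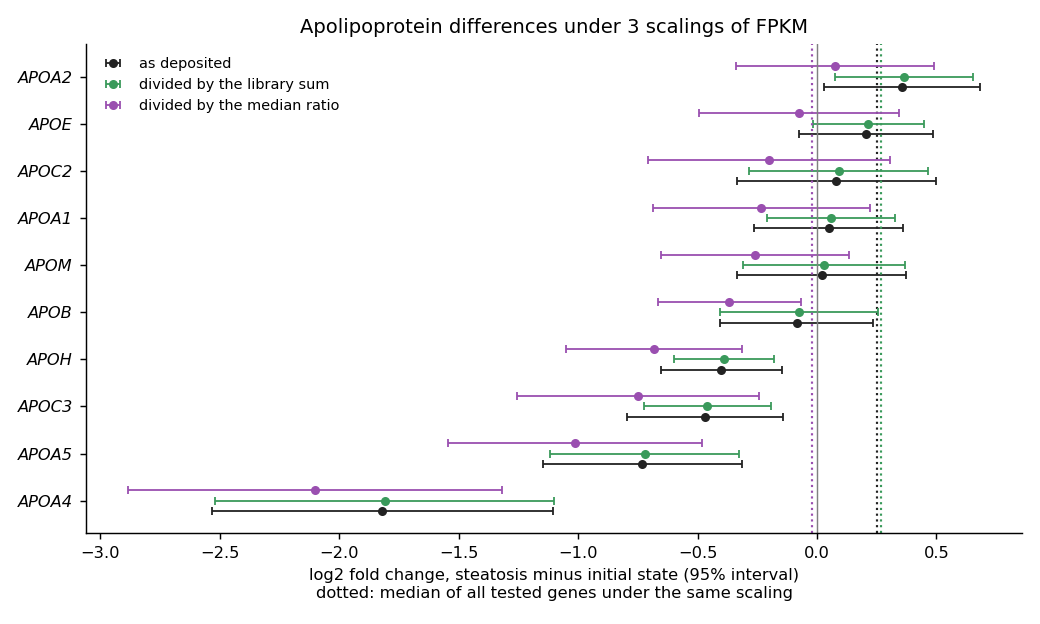
Log2 fold change of each apolipoprotein, steatosis minus initial state, from limma with its 95% interval, for FPKM as deposited (black), divided by the library sum (green) and divided by the median ratio (purple); dotted lines give the median of all 13175 genes under the same scaling. APOA4, APOA5, APOC3 and APOH lie left of 0 with their whole interval under all 3 scalings, whereas APOA1, APOC2, APOE and APOM change sign with the scaling.

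The ligands of lipoprotein uptake, APOB and APOE, did not pass the test. APOB, gene 100523371 on chromosome 3 at 117250096 to 117316200, had 458, 615, 598 and 444 FPKM in the initial state and 417, 571, 516 and 480.1 in steatosis. The groups overlapped, and pool 2 was the highest in both. From 529 ± 90.5 to 496 ± 64.6, the log2 fold change was -0.09 (SE 0.14, 95% interval -0.41 to 0.23) with an adjusted p of 0.679 from limma. After division by the median ratio it was -0.37 (adjusted p = 0.0788 from limma), and with the pool number as a block in addition the adjusted p was 0.049.

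APOE, gene 397576 on chromosome 6 at 51373113 to 51375333, had 4311, 4291, 4821 and 5621 FPKM in the initial state and 5381, 5066, 5475 and 5935 in steatosis. It was higher in steatosis in 4 of 4 pools of the same number, but pool 4 of the initial state lay above 3 of the steatosis pools. The means were 4761 ± 624 and 5464 ± 359, the log2 fold change 0.21 (SE 0.13, 95% interval -0.07 to 0.48) and the adjusted p 0.24 from limma. After division by the median ratio the estimate was -0.08. Macrophages also make APOE, and the summed FPKM of 17 macrophage markers went from between 852 and 1147 in the initial state to between 2259 and 3200 in steatosis, with 12 of 17 higher and 0 lower. The part of these cells in the level of APOE was not tested.

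APOH, gene 100522100 on chromosome 12 at 12827195 to 12839172, fell by 24.4%. Its FPKM was 4398, 4046, 5061 and 4804 in the initial state and 3677, 3212, 3546 and 3409.8 in steatosis. No steatosis pool reached the lowest initial pool, and the spread between pools was small in both groups. The means were 4577 ± 447 and 3461 ± 199, with a log2 fold change of -0.40 (SE 0.11, 95% interval -0.65 to -0.15, adjusted p = 0.026 from limma). The adjusted p from limma rose above 0.05 without pool 3 (0.0588) or 4 (0.0547) of the initial state, without pool 2 (0.0613), 3 (0.0558) or 4 (0.0671) of steatosis and without the filter on low values (0.107). The log2 fold change in the fits that left out 1 library lay between -0.46 and -0.35.

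Together the 10 transcripts made up 8.25% ± 0.799 (SD, n = 4) of the FPKM sum of a library in the initial state and 6.74% ± 0.327 in steatosis. The share was 7.36%, 8.17%, 8.16% and 9.30% in pools 1 to 4 of the initial state and 6.81%, 6.67%, 7.14% and 6.35% in steatosis, without overlap. In fragments, estimated from FPKM and gene length, the share was 3.87% ± 0.379 and 3.24% ± 0.122. Summed FPKM fell to 0.811 of the initial state as deposited, and the ratio was 0.776 without pool 1 of the initial state. Most of this difference was APOC3: without it the remaining 9 genes made up 3.86% and 3.55% of the FPKM sum, a ratio of 0.919, and their groups overlapped.

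**Figure D3:**
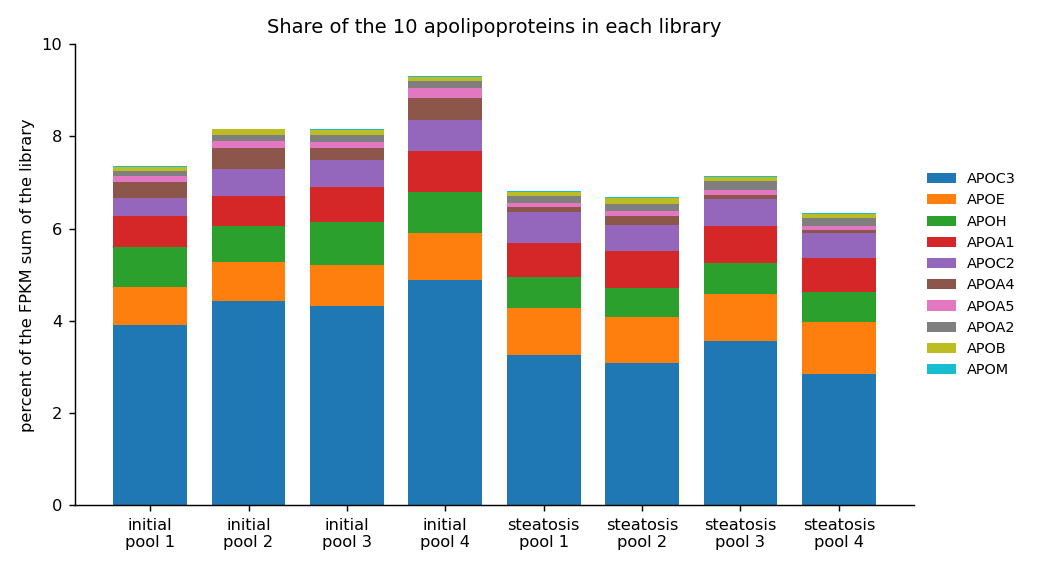
Percent of the FPKM sum of each library taken by the 10 apolipoproteins, stacked by gene, for pools 1 to 4 of the initial state (left) and of steatosis (right). The bars of the initial state reach between 7.36% and 9.30% and those of steatosis between 6.35% and 7.14%, and APOC3 (blue) is the largest part of every bar.

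The make-up of this pool of transcripts also differed. APOC3 was 53.2% ± 0.79 of the summed FPKM of the 10 in the initial state and 47.2% ± 2.1 in steatosis, and APOA4 was 4.65% ± 0.919 and 1.74% ± 0.885. APOE went from 10.9% ± 0.484 to 15.5% ± 1.58, APOA1 from 9.01% ± 0.807 to 11.4% ± 0.539, APOC2 from 6.68% ± 1.05 to 8.61% ± 0.699 and APOA2 from 1.64% ± 0.171 to 2.58% ± 0.261. None of these 6 shares overlapped between groups, while those of APOA5, APOB, APOH and APOM did. Shares of a fixed whole move against each other, so they are given without a test.

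Of 15 ratios between apolipoproteins within a library, chosen after the values were seen and therefore not tested, 7 did not overlap between groups. With APOA1 as the denominator, APOC3 went from between 5.43 and 6.93 to between 3.83 and 4.43, APOA4 from between 0.359 and 0.692 to between 0.0811 and 0.247, APOA5 from between 0.163 and 0.254 to between 0.114 and 0.13 and APOH from between 0.980 and 1.25 to between 0.776 and 0.937. APOA4 stood at 2.05 to 2.79 times APOA5 in the initial state and at 0.634 to 1.90 times in steatosis. APOA2, APOB, APOC2, APOE and APOM relative to APOA1 overlapped, as did APOC2 relative to APOE. The ratios of APOA4 to APOC3, 0.0627 to 0.0999 in the initial state and 0.0207 to 0.0645 in steatosis, and of APOA5 to APOC3, 0.0284 to 0.0468 and 0.0259 to 0.0339, also overlapped. These ratios hold under any scaling between libraries.

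The 10 genes lie on 6 chromosomes and include a pair of clusters whose members are less than 100 kb apart. On chromosome 9, APOA5, APOA4, APOC3 and APOA1 lie in this order within 40527 bases. From APOA5 to APOA1 their log2 fold changes were -0.73, -1.82, -0.47 and 0.05, so the 3 genes at the APOA5 side fell and APOA1 at the other end did not pass the test. ZPR1, which encodes a zinc finger protein, lies at 44167422 to 44178137 and shares 304 bases with APOA5. It had 131, 73.1, 149.8 and 62.3 FPKM in the initial state and 59.3, 39.6, 47.1 and 34.2 in steatosis. All steatosis pools of ZPR1 were below all initial pools, and it fell by 1.14 on the log2 scale (SE 0.29, limma adjusted p = 0.0157). The use of strand in the counting is not given in the sources used here, so reads in the bases shared by ZPR1 and APOA5 cannot be assigned with certainty. The same holds for APOA4, which lies wholly within the annotated long noncoding RNA LOC106504887, not analysed here. The nearest protein-coding genes that do not overlap the cluster, BUD13 beyond ZPR1 and SIK3 beyond APOA1, had log2 fold changes of 0.26 and 0.07 with adjusted p from limma of 0.268 and 0.819. On chromosome 6, APOE and APOC2 lie within 33190 bases with APOC4 between them, another apolipoprotein of VLDL. APOC4 had 409 ± 84 FPKM in the initial state and 377 ± 55.3 in steatosis (log2 fold change -0.11, adjusted p = 0.617 from limma). None of the genes of this cluster, nor its neighbours TOMM40 (-0.19, adjusted p = 0.173 from limma) and CLPTM1 (0.03, adjusted p = 0.826), passed the test.

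**Figure D4:**
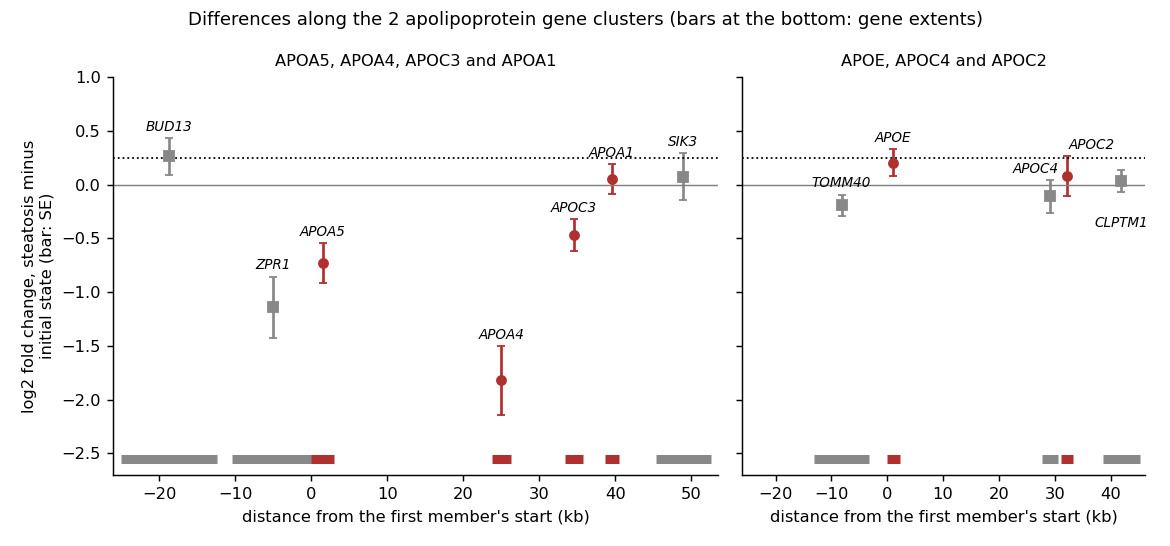
Log2 fold change (steatosis minus initial state, bars are SE) along the APOA5 to APOA1 cluster of chromosome 9 (left) and the APOE to APOC2 cluster of chromosome 6 (right), against the distance in kb from the start of the first apolipoprotein, with gene extents at the bottom. Red circles are the described apolipoproteins and grey squares other genes, whose extent ends at the edge of the panel where the gene is longer; the dotted line is the median of all tested genes, 0.25, and the lowest points are APOA4 at -1.82 and ZPR1, which overlaps APOA5, at -1.14.

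Within groups, the 10 transcripts varied partly together from pool to pool. After the group means were removed, the 45 pairs had a median Pearson r of 0.29 over the 8 libraries, and 31 pairs were above 0. The pair most alike was APOC2 and APOC3 (r = 0.79), followed by APOA1 and APOE (0.76) and APOA2 and APOE (0.76). APOA5 was most like APOA1 (0.67), APOH most like APOA1 (0.62), APOA4 most like APOA5 (0.49) and APOM most like APOH (0.44). APOB shared least with the others: its highest r was 0.16, with APOA2, and its lowest -0.61, with APOM. All these values share the same 8 libraries and their depth and are given as a description. For the summed apolipoproteins the group means were left in, so their fall between the states enters the following r values. Over the 8 libraries, the log2 levels most like that sum, among all other tested genes, were those of SDHB (r = 0.98), PREB (r = 0.94) and HAGH (r = 0.94). They were picked as the highest of all these genes over only 8 libraries, so their r values are given without a test. APOC3 alone was 53.2% of the sum in the initial state and 47.2% in steatosis. SDHB is a subunit of succinate dehydrogenase and HAGH a hydrolase of the glyoxalase system. PREB is an exchange factor for the export of proteins from the endoplasmic reticulum. PREB was lower in steatosis (log2 fold change -0.42, adjusted p = 0.0138 from limma), whereas SDHB (-0.11, adjusted p = 0.314) and HAGH (-0.26, adjusted p = 0.0716) did not pass the test.

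The genes that handle apolipoproteins were counted with the adjusted p of 0.05 from limma, to be read against 26.7% higher and 2.28% lower of all tested genes as deposited and 11.4% and 10.1% after division by the median ratio. Of 17 tested genes of lipoprotein assembly and secretion 6 were lower and 1 higher, with a median log2 fold change of -0.11, and 1 was higher under each alternative named here. The lower genes numbered 4 after division by the library sum, 5 with the pool number as a block, 5 without pool 1 of the initial state and 10 after division by the median ratio. CIDEB, a lipid droplet protein that takes part in VLDL lipidation, was lower at 161 ± 26.8 against 253 ± 30.1 FPKM (log2 fold change -0.65, adjusted p = 0.00583). SEC23A, a coat protein of the vesicles that leave the endoplasmic reticulum, was lower by -0.57 (adjusted p = 0.0206) and TANGO2 higher by 0.73 (adjusted p = 6.16e-04). MTTP, which loads lipid onto APOB, had 86.5, 109.8, 89.4 and 99.6 FPKM in the initial state and 67.2, 90.4, 68.3 and 72.5 in steatosis. Its values overlapped in pool 2 of steatosis alone, and its log2 fold change was -0.37 (adjusted p = 0.0428), next to -0.09 for APOB.

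Among 12 plasma lipases and lipid transfer genes 4 (33.3%) were higher, a share near that of all tested genes, and 1 was lower, with a median of 0.12 that turned to -0.16 after division by the median ratio. The lower genes numbered 3 with the pool number as a block, 3 after division by the median ratio and 2 without pool 1 of the initial state. PLTP, which moves phospholipid onto HDL, went from 12 ± 1.64 to 40.8 ± 4.51 FPKM (log2 fold change 1.76, adjusted p = 2.13e-05). LPL, the lipase itself, had 6.59, 0.11, 0.27 and 0.05 FPKM in the initial state and 7.20, 11.4, 11.3 and 5.21 in steatosis. Its groups overlapped through pool 1 of the initial state, and its log2 fold change was 4.00 (adjusted p = 0.016) with that pool and 5.22 without it.

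Lipoprotein receptors and uptake genes were higher in 6 of 15 cases and lower in none by limma, and after division by the median ratio 5 were higher and 2 lower. With the pool number as a block 6 were higher and 1 lower. CD36 (log2 fold change 2.87, adjusted p = 0.00651, and 3.58 without pool 1 of the initial state), MSR1 (2.35, adjusted p = 1.09e-05), both scavenger receptors, and MYLIP (0.86, adjusted p = 0.00423), a ubiquitin ligase, had the largest differences. Of 5 transporters of lipid to apolipoproteins or bile 3 were higher under both scalings: ABCG1 (2.30, adjusted p = 2.07e-04), ABCA1 (1.69, adjusted p = 1.81e-04) and ABCG5 (1.17, adjusted p = 6.62e-04). ABCA1, which loads APOA1 with lipid, thus went from 3.72 ± 0.657 to 12.3 ± 2.63 FPKM while APOA1 stayed between 3282 and 4902.5 in all 8 libraries.

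Transcription factors known to act on apolipoprotein genes gave 7 higher (24.1%, near the share of all tested genes) and 4 lower (13.8%) of 29, with a median of 0.16 that turned to -0.12 after division by the median ratio. After that division 3 were higher and 6 lower. SREBF1 (log2 fold change 1.70, adjusted p = 0.00454 from limma) was higher, and NR0B2 (-1.43, adjusted p = 0.0173), the small heterodimer partner, was lower. HNF4A, a main activator of the APOA5 to APOA1 cluster, had 52.6 ± 4.83 and 54.2 ± 4.27 FPKM (0.04, adjusted p = 0.757), and it was named with its value known. Of the genes that edit the APOB messenger, A1CF was higher (0.47, adjusted p = 0.0124) but not after division by the median ratio (0.215), and APOBEC1 was at most 0.04 FPKM in any library. Of 9 other apolipoprotein genes tested, APOO alone was higher (0.42, adjusted p = 0.0491) and none was lower, with a median of 0.08 that turned to -0.20 after division by the median ratio, where none was higher. APOO was also not called without pool 1 of the initial state (0.0699), and with the pool number as a block 2 of the 9 were higher and 1 lower. A further 7 genes of this list, APOC1 among them, were not analysed here.

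**Figure D5:**
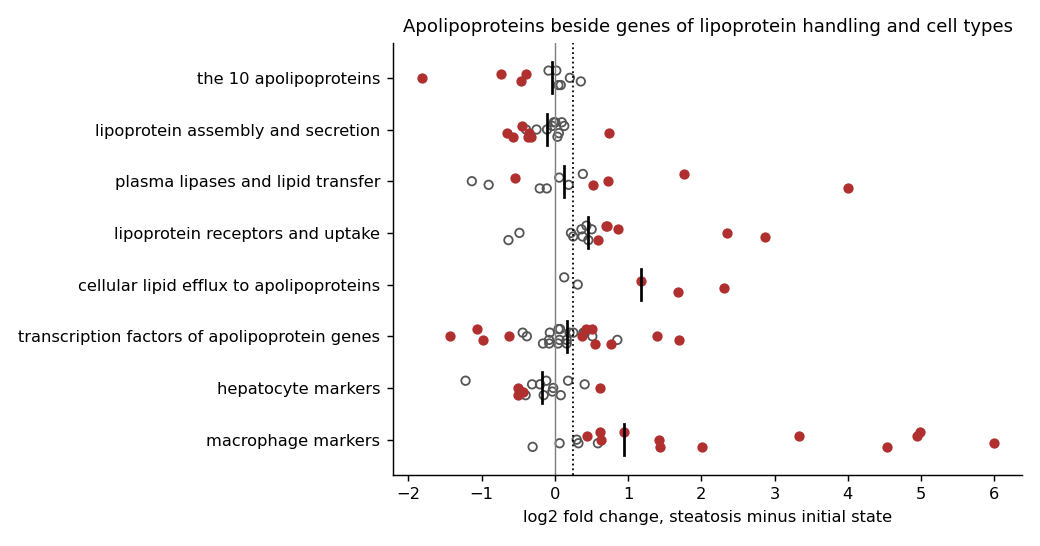
Log2 fold change (steatosis minus initial state) of the 10 apolipoproteins and of the tested genes of 7 lists. Each circle is a gene, filled red where the adjusted p from limma was under 0.05, the black tick is the median of the list and the dotted line the median of all tested genes, 0.25. Filled points of the apolipoproteins lie left of 0, those of assembly and secretion mostly left, and those of the uptake, efflux and macrophage lists right.

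Markers of the liver cells moved beside these results, and their part in them was not tested. Of 16 hepatocyte markers 3 (18.8%) were lower, all chains of fibrinogen, and 1 was higher, with a median of -0.18. Of all tested genes 2.28% were lower and 26.7% higher. After division by the median ratio 7 of the 16 were lower and none higher, against 10.1% and 11.4% of all tested genes. FGG (log2 fold change -0.51, adjusted p = 0.00355 from limma) and FGA (-0.50, adjusted p = 0.00434), chains of fibrinogen, were lower by about as much as APOC3. TF, transferrin, went the other way (0.61, adjusted p = 0.0118, but 0.264 after division by the median ratio), and ALB, serum albumin, had 50413 ± 13848 and 37499 ± 4575 FPKM (-0.40, adjusted p = 0.168). Beside the macrophage markers given with APOE, stellate and fibroblast markers were higher in 3 (33.3%) and lower in 1 of 9. Endothelial markers were higher in 2 of 6 (33.3%), and adipose markers in 1 of 4 (25%), FABP4. These shares of higher genes are near the 26.7% of all tested genes. After division by the median ratio 1 of the 9 was higher and 1 lower, and 1 of the 6 and 1 of the 4 were higher. T and B cell markers were lower in 2 of 7, the B cell genes CD79A and MS4A1, while no T cell gene passed. Enterocyte markers were higher in 1 of 2 (VIL1). By limma none of 4 cholangiocyte, 3 red blood cell or 2 stomach and pancreas markers passed, and the 1 skeletal muscle gene tested was lower and was untested without pool 1 of the initial state.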

How the data were processed

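RNA of 4 pools per state, each from 2 pigs, was sequenced as paired-end reads of 100 bases from poly-A RNA. The authors removed reads of low quality, mapped the rest with HISAT2 2.0.4 to the Sus scrofa 11.1 genome, added new coding transcripts found with StringTie 1.0.4 to the reference, mapped again with Bowtie2 2.2.5 and estimated expression with RSEM 1.2.12 (versions in part from the submitters' processing notes). The values deposited by the authors are FPKM, with no stated scaling between libraries. Further files deposited by the authors hold gene length in bases (another unit, used here for fragment shares), and fold changes and false discovery rates of single pool pairs, which were not used. Their 135686 expression values were compared with the FPKM table and 0 differed, apart from a floor in place of 0. Coordinates are those of RefSeq for Sscrofa11.1, matched by gene ID for 10 of 10 genes.

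Groups were taken from the labels. The fit took log2(FPKM + 0.1) of the genes that reached 0.3 FPKM in 4 or more of 8 libraries and was made with limma 3.58.1 (R 4.3.3), with a trend of variance on mean level. A fold change on this scale understates that of low genes. For single values an exact permutation test, two-sided, was used, which takes the libraries as unpaired. Other values and plots were made with Python 3.11.15, numpy 2.4.6, pandas 2.3.3, scipy 1.17.1 and matplotlib 3.10.9. The fit was tested on simulated data. Read numbers are not given by FPKM, so precision is the spread between pools, and no sequences were printed. Genes of near-identical sequence can share reads.

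The 10 genes and the 18 related lists were chosen with earlier results of these data known. All 10 are named, with at most 3 genes of each list (those past the adjusted p of 0.05 with the largest change) plus APOC4, MTTP and ALB, the neighbours of both clusters and the 3 genes most like the summed level. HNF4A, APOBEC1, ZPR1 (an overlap at the edge of a cluster) and low single markers were named after their values were seen, and some genes of the lists are not reported here by name. A second gene with the symbol TF was left out, since RefSeq gives it as an inhibitor of carbonic anhydrase. Pool numbers come from the labels. Deviations from the group means correlated at 0.163, 0.350, 0.317 and 0.247 between equal numbers, all above 0.1, so the numbers were taken to pair the libraries, and the pool number was added as a block in further fits. Other alternatives were scaling by the library sum, upper quartile or median ratio, a pseudocount of 1, no filter, a filter at 1 FPKM, no trend, and each library left out in turn.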

Additional observations from a re-analysis of the deposited data

Results flagged for a closer look

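The spread of each of the 10 genes was examined in both groups, 20 groups of 4 pools in all, and 1 held a sample far from the others. APOM in the initial state had 113, 97.5, 116 and 114 FPKM, and the gap of pool 2 to its nearest neighbour was 0.87 of the range of the group. Chance alone gives such a gap in about 1 of 20 groups. Without this pool the log2 fold change of APOM was -0.04, against 0.02 with it, and neither passed the test.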

How the results depend on the processing

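The fall of APOA4 and APOA5 passed an adjusted p of 0.05 under all 18 alternatives, that of APOC3 under 11 and that of APOH under 12, and none of these 4 changed direction. With the limits of the study, 1 gene was lower and the fits that left out 1 library gave 0 to 1, with 0 without pool 2 or pool 4 of the initial state. At an adjusted p of 0.05, 4 genes were lower, and the fits that left out 1 library gave 2 to 4, with 2 without pool 3 or 4 of the initial state or pool 2 or 4 of steatosis. Without a filter 2 were lower, APOA4 and APOA5, in a test over 18103 rows. Paired by the pool number as a block, with or without division by the library sum, 1 gene was higher, APOA2 (adjusted p = 0.034 and 0.0197 from limma). The block with the median ratio, an alternative chosen after seeing the data, called APOB lower (-0.37). It did not call APOA2 (0.07, adjusted p = 0.73 from limma). The block changed no other call among the 10 genes.

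The ratio of summed FPKM, 0.811, was 0.661 after division by the median ratio, and the ratio of shares, 0.818, was 0.919 without APOC3. The share itself does not change with scaling, so no such value was computed. None of the estimates that changed sign passed the test. After division by the upper quartile APOA1, APOC2, APOE and APOM had log2 fold changes of -0.19, -0.15, -0.0295 and -0.21. After division by the median ratio, with or without the block, they had -0.23, -0.20, -0.0758 and -0.26. Leaving out 1 library gave -0.0348 to 0.16 for APOA1, -0.11 to 0.20 for APOC2 and -0.13 to 0.15 for APOM.

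Over all tested genes, 3519 were higher and 300.0 lower at an adjusted p of 0.05 (92.1% higher) as deposited. After division by the median ratio 1501 were higher and 1336 lower (52.9% higher), and after division by the upper quartile 1679 and 1019 (62.2%). With the limits of the study, applied to the limma fit made here, 792 were higher and 44 lower. These are not the counts that the study itself reported. The median ratio gave 403 and 84, and the upper quartile 439 and 73. A pseudocount of 1 gave 395 and 39. Leaving out 1 library gave 2200.0 to 3401 higher and 168 to 397 lower genes at 0.05. Which scaling is right was not tested. FPKM gives no read numbers, and the mean clean reads per state given in the paper were not used. Counting error was therefore not set apart from the spread between pools. Without pool 1 of the initial state, stellate markers gave 4 higher and 0 lower, endothelial markers 1 higher and cholangiocyte markers 1 higher.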
